A study of Homo sapiens with 30 samples.

Results

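Transcripts of 10 genes that encode an activin subunit, its antagonist follistatin and feedback regulators or direct targets of TGF-beta family signalling were followed in A375 cells given MLN4924 or its solvent. The genes were INHBA, FST, BAMBI, SMAD6, SMAD7, SKIL, ID1, ID2, ID3 and ID4, 10 of 19775 genes measured. They were chosen by symbol, not by a filter on level, and with earlier results of these data known. All 26 probe sets of the array annotated to exactly 1 of these symbols were taken: 3 for INHBA, 3 for FST, 4 for SMAD6, 1 for SMAD7, 5 for SKIL, 1 for BAMBI, 1 for ID1, 2 for ID2, 1 for ID3 and 5 for ID4. Each gene is described by its brightest probe set unless another is named, and no member was removed by a filter on low values.

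Activin A is a homodimer of the protein encoded by INHBA and signals through activin receptors to SMAD2 and SMAD3, while bone morphogenetic proteins (BMPs) signal through related receptors to SMAD1, SMAD5 and SMAD9. Follistatin, encoded by FST, binds activin outside the cell and keeps it from its receptors. BAMBI is a membrane pseudoreceptor without a kinase, SMAD6 and SMAD7 are inhibitory SMADs that act at the receptors, and SKIL (SnoN) is a SMAD-binding corepressor. ID1 to ID4 are textbook BMP target genes whose products bind E proteins and keep them off DNA.

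A375 is an established human melanoma line, and MLN4924 inhibits the enzyme that activates the ubiquitin-like protein NEDD8, which cullin-RING ubiquitin ligases need to work. The 10 groups were A375 cells with 650 nM MLN4924 or 0.065% DMSO for 1, 2, 4, 8 or 24 h, with 3 Affymetrix HG-U133 Plus 2.0 arrays in each group and 30 arrays in all. Every group shared the line and the medium with 10% serum, and each time had DMSO arrays of its own. The labels do not say whether the 3 replicates of a group were separate cultures, so every p-value here reflects sample-to-sample spread that could be technical alone.

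The promoters of 5 members are printed to show how unlike the promoters of these genes are. Each run is the 250 bases before the annotated transcription start, 5′ to 3′ on the gene's own strand, from RefSeq (GRCh38.p14), with motif matches in capitals. INHBA lies on the minus strand at chr7:41703091-41703340, FST on the plus strand at chr5:53480379-53480628, SMAD6 on the plus strand at chr15:66701986-66702235, BAMBI on the plus strand at chr10:28677271-28677520 and ID1 on the plus strand at chr20:31605039-31605288.
INHBA: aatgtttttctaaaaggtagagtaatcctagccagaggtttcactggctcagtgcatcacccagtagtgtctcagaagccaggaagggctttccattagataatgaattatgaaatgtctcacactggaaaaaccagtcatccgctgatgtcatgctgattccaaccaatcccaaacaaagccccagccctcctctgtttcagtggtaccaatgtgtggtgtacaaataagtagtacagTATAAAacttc
FST: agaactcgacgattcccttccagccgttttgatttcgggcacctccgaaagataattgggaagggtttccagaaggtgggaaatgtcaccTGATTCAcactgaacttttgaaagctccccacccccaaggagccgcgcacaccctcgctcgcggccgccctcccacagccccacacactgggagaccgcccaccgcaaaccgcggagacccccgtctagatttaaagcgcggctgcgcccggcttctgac
SMAD6: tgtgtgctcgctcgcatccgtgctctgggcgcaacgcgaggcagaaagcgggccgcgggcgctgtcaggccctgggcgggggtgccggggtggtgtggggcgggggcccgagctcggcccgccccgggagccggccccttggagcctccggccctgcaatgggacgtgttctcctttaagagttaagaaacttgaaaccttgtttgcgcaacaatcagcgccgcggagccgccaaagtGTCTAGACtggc
BAMBI: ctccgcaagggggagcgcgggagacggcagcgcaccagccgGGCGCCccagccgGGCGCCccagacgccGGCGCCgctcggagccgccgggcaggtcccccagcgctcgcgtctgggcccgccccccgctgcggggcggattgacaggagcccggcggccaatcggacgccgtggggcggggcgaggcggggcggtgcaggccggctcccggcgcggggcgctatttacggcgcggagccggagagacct
ID1: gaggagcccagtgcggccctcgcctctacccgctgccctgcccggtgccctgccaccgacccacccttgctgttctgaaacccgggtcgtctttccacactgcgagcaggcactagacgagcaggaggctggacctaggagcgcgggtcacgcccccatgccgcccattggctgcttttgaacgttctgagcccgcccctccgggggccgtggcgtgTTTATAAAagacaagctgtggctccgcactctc
The capitals mark TATAAA in INHBA and ID1, GTCTAGAC (the palindromic SMAD box) in SMAD6 and GGCGCC (a GC-rich SMAD element) in BAMBI. In FST they mark TGANTCA, a loose AP-1-like pattern in which N was any base, here read as TGATTCA. Motifs were searched on both strands in 12 windows, since SMAD7 had 3 starts and each other member 1. The INHBA window, at 42.8% G and C, was the poorest of the 12 in G and C, and that of BAMBI, at 81.2%, the richest, against a median of 58% over 35116 windows of all genes. TATAAA was found in INHBA, 1 window of SMAD7, ID1 and ID4, and in 10.7% of all windows. The match of INHBA began 11 bases before the start, and ID1 had 2 overlapping matches that began 33 and 31 bases before it. GTCTAGAC was found in SMAD6 alone among the members, 12 bases before the start, and in 0.182% of all windows. GGCGCC occurred 3 times in BAMBI and 1 time in SKIL, against 16.4% of all windows with at least 1 match. TGANTCA was found in FST (6.57% of all windows) and TGACGTCA, the cyclic AMP response element, in SKIL (1.65%), while AGCCAGACA, the CAGA box of activin and TGF-beta target promoters, was in no member window and in 0.231% of all windows. These matches are a description of letters in short windows.

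Array quality and cell identity were checked over all 30 arrays. The 3′ to 5′ signal ratio of ACTB ran from 1.16 to 1.65, and DMSO 2 h replicate 1 (1.65) was the highest, with MLN4924 1 h replicate 2 (1.60) and DMSO 2 h replicate 2 (1.58) next. The counts at 2 h are also given without the pair of DMSO arrays in the closing section. Without that pair the change at 2 h was -0.07 for FST, -0.35 for ID1 and -0.37 for ID3, none called (limma adjusted p from 0.642 to 0.999), and those of INHBA, SKIL and ID2 stand with these genes. The melanocyte lineage marker SOX10 was well measured (lowest 304.5, median 764.9, highest 1126), as was MITF (median 301.5). S100B (median 237.7) ran from 31.75 to 1022, so it was dim on its lowest array. TYR (48.4) lay above the median of all signals, 36.6, whereas the pigment cell genes PMEL (25.4) and MLANA (18.2) lay under it. Of the markers of other cell types, EPCAM, CDH1, KRT19, COL3A1, PDGFRB, PTPRC, CDH5 and VWF had medians from 2.52 to 14, and KRT5 (45.4), CD3E (47.3), LUM (57.4), DCN (70.7), PECAM1 (82.3), HBB (137.3), KRT14 (137.3) and COL1A1 (142.9) lay above that median. No measured marker was at 0 on any array. The summed signal of the 6 measured melanocyte markers of 7 listed ran from 2168 to 2429 on the DMSO arrays at 24 h and from 843.6 to 927.6 on the MLN4924 arrays, and from 1716 to 1925 against 761.8 to 835.4 at 8 h. At 4 h this sum ran from 1320 to 1802 with DMSO against 936.8 to 973.3 with MLN4924. At 2 h it ran from 1628 to 1735 against 1039 to 1364, and at 1 h the groups overlapped. Over all times the DMSO and MLN4924 medians were 964.8 and 443 for SOX10 and 296.8 and 189.9 for S100B. They were 321.7 and 285.6 for MITF, 49.6 and 45.2 for TYR, 26.2 and 25.3 for PMEL, and 22.7 and 12.3 for MLANA. At 24 h the summed signal of 5 fibroblast markers ran from 239.3 to 294.2 with MLN4924 and from 375.8 to 422.5 with DMSO, and that of 5 epithelial markers from 108 to 134.4 and from 143.2 to 159.5, while the sums of the blood and endothelial markers overlapped. With DMSO, the melanocyte sum (1478 to 1605 at 1 h) and the fibroblast sum (308.5 to 332 at 1 h) had themselves risen by 24 h. The melanocyte sum was thus lower with MLN4924 from 2 h on, and the fibroblast and epithelial sums at 24 h. These shifts had the same direction as the members described next, and their part in those results was not tested. In bulk RNA, fewer cells expressing a gene and less of its RNA per cell cannot be told apart.

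MLN4924 lowered INHBA, FST, BAMBI, ID1, ID2 and ID3 at 1 or more times and left SMAD6, SMAD7, SKIL and the brightest ID4 probe set without a called change. Changes are differences of mean log2(signal + 32), MLN4924 minus DMSO, and a gene was called at a limma adjusted p under 0.05 (Benjamini-Hochberg over all 19775 genes). At 1 h 0 of 10 members were called, 1 of them had an unadjusted p under 0.05 in limma, and 0.00506% of all genes were called higher and 0% lower. At 2 h 2 members were lower, INHBA and ID2, against 0.212% of all genes called lower and 0.344% called higher. At 4 h 5 members were lower (INHBA, FST, ID1, ID2 and ID3) against 1.57% of all genes, with 1.84% of all genes higher. At 8 h 6 members were lower, the same genes and BAMBI, against 6.83% of all genes, with 8.35% higher. At 24 h 4 members were lower (INHBA, FST, BAMBI and ID1) against 18.1% of all genes, with 15.9% higher. No member was called higher at any time by its brightest probe set.

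The median change of the 10 members was -0.04, -0.15, -0.38, -0.51 and -0.35 at 1, 2, 4, 8 and 24 h, while the median of all genes stayed between -0.01 and 0.00. Leaving out single arrays moved the count at 2 h between 0 and 3, that at 4 h between 4 and 5, that at 8 h between 6 and 7 and that at 24 h between 4 and 6. An F test over the 5 changes called 6 members, INHBA, FST, BAMBI, ID1, ID2 and ID3, against 32.6% of all genes. Centring each array on its median raised the share of higher genes among all calls from 53.9% to 67.8% at 4 h and from 55% to 77.6% at 8 h.

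**Figure D1:**
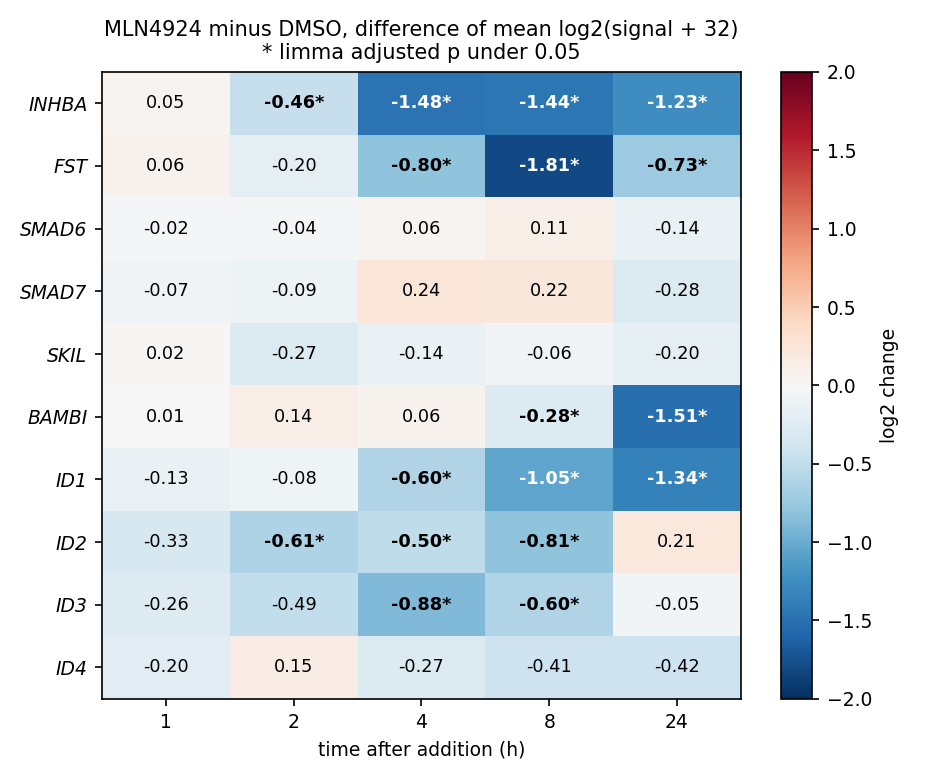
Change of each member with MLN4924 at each time, as mean log2(signal + 32) of 3 MLN4924 arrays minus that of 3 DMSO arrays; colour and printed value give the change and a star marks a limma adjusted p under 0.05. INHBA and FST reached -1.48 and -1.81, BAMBI fell mainly at 24 h (-1.51), and the SMAD6, SMAD7 and SKIL rows hold no star.

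INHBA, the gene of the activin A subunit, fell with MLN4924 from 2 h on and stayed below DMSO to 24 h. On the DMSO arrays its signal was 1477, 1446 and 1531 at 1 h, 1694, 1661 and 1578 at 2 h, 1488, 1604 and 1536 at 4 h, 1537, 1699 and 1744 at 8 h, and 3275, 3478 and 3611 at 24 h. On the MLN4924 arrays it was 1519, 1641 and 1459 at 1 h, 1129, 1054 and 1410 at 2 h, 524.5, 526.3 and 547.5 at 4 h, 576.3, 601.6 and 589.7 at 8 h, and 1301, 1707 and 1367 at 24 h. The groups overlapped at 1 h, and from 2 h on each MLN4924 array lay below each DMSO array of its time. The change was -0.46 at 2 h (SE 0.0905, limma adjusted p = 0.0129), -1.48 at 4 h (6.57e-11), -1.44 at 8 h (2.56e-11) and -1.23 at 24 h (5.9e-11), all with that SE. The drug effect deepened by -1.02 from 2 to 4 h (SE 0.128, limma adjusted p = 0.000123), a step that 0.293% of all genes made in the lower direction.

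The order of the 10 INHBA group means ran from 532.7 ± 12.8 (SD, n = 3) with MLN4924 at 4 h, through 589.2 ± 12.7 at 8 h, to 1198 ± 188 at 2 h and 1458 ± 218 at 24 h. From the 2 h value up to DMSO at 8 h, neighbours in this order differed by less than the sum of their SDs, and the band went on with DMSO at 1 h (1485 ± 42.8), MLN4924 at 1 h (1540 ± 93.1), DMSO at 4 h (1543 ± 58.3), DMSO at 2 h (1644 ± 59.7) and DMSO at 8 h (1660 ± 109). DMSO at 24 h stood alone at 3455 ± 169. At 24 h the treated arrays were thus back near the level of 1 h (24 h against 1 h -0.08, limma adjusted p = 0.572) while the DMSO arrays had risen (1.20, limma adjusted p = 1.56e-09; 9.93% of all genes rose and 8.49% fell in DMSO over that interval). The probe set 210511_s_at gave the same calls: -0.64, -1.26, -1.56 and -1.15 at 2, 4, 8 and 24 h (SE 0.126, limma adjusted p over 41097 probe sets 0.0177, 5.2e-07, 4.27e-09 and 9.42e-08). The remaining INHBA probe set, 204926_at, was dim (mean 30.3) and not called at any time. The call of the brightest probe set at 2 h was lost without DMSO 2 h replicate 1 (-0.44, limma adjusted p = 0.0799), without DMSO 2 h replicate 2 (-0.45, 0.0685), without MLN4924 2 h replicate 1 (-0.42, 0.0648) and without MLN4924 2 h replicate 2 (-0.37, 0.103). Its adjusted p reached 0.531 with only the arrays of 2 h in the fit, and without both named DMSO arrays its change was -0.40. The 2 h call of 210511_s_at was also lost without DMSO 2 h replicate 1 or 2, without MLN4924 2 h replicate 2 and with only the arrays of 2 h. Over these alternatives its adjusted p reached 0.598.

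FST, the gene of follistatin, was called lower from 4 h on and had its lowest mean at 8 h. Its signal on the DMSO arrays was 1957, 2132 and 2040 at 1 h, 2124, 2132 and 1856 at 2 h, 2352, 2252 and 2386 at 4 h, 2284, 2095 and 2101 at 8 h, and 2017, 2018 and 1858 at 24 h. On the MLN4924 arrays it was 2176, 2136 and 2094 at 1 h, 1910, 1964 and 1464 at 2 h, 1334, 1272 and 1359 at 4 h, 584.6, 594 and 600.7 at 8 h, and 1207, 1112 and 1196 at 24 h. The DMSO arrays of this probe set stayed between 1856 and 2386, the groups overlapped at 1 and 2 h, and they were apart from 4 h on. The change was -0.20 at 2 h (SE 0.0803, limma adjusted p = 0.368), -0.80 at 4 h (3.21e-07), -1.81 at 8 h (7.19e-14) and -0.73 at 24 h (6.4e-08), all with that SE.

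The FST effect moved at each of the last 3 steps: by -0.60 from 2 to 4 h (SE 0.114, limma adjusted p = 0.00987), by -1.01 from 4 to 8 h (1.01e-05), and back by 1.08 from 8 to 24 h (1.27e-07). The first of these was lost with arrays centred on their median (0.0695) and with only the arrays compared (0.262). Of all genes, 0.784% moved lower from 4 to 8 h, and 8.23% moved higher and 11.3% lower from 8 to 24 h. In order of level, MLN4924 at 8 h was lowest (593.1 ± 8.09, SD, n = 3), followed by MLN4924 at 24 h (1172 ± 51.7), 4 h (1322 ± 44.5) and 2 h (1780 ± 274). The other 6 groups lay between 1964 ± 92.2 (DMSO, 24 h) and 2330 ± 69.4 (DMSO, 4 h), with neighbours less than the sum of their SDs apart. The FST probe sets agreed at 4 and 8 h and differed at 24 h. Probe set 204948_s_at fell by 1.93 at 8 h and by 0.63 at 24 h (limma adjusted p = 2.99e-13 and 4.5e-06), and on the DMSO arrays by 0.43 from 1 to 24 h (0.00156). Probe set 207345_at fell by 1.34 at 8 h (limma adjusted p = 1.29e-12) but was at 270.5 ± 15.7 with MLN4924 and 261.8 ± 1.62 with DMSO at 24 h, with a fall in the DMSO arrays themselves (24 h against 1 h -0.55, limma adjusted p = 3.26e-06).

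**Figure D2:**
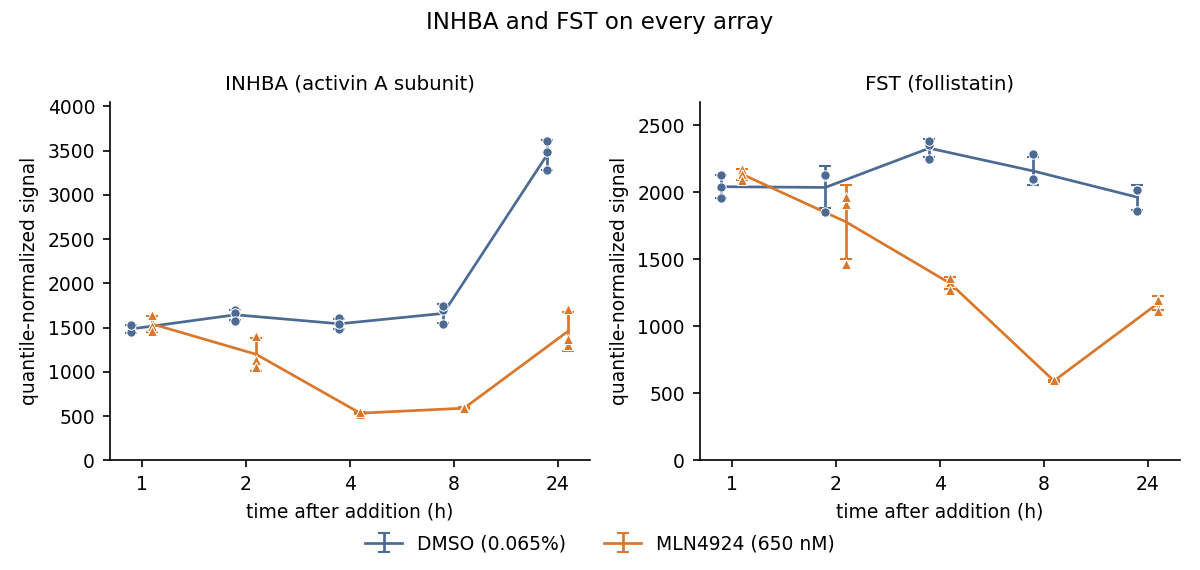
Quantile-normalized signal of INHBA (left) and FST (right) on every array against time (categories, not to scale); points are arrays, lines join group means and bars are 1 SD (n = 3). INHBA in DMSO stood at 3455 at 24 h after 1485 at 1 h, while FST with MLN4924 had its low point of 593.1 at 8 h.

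BAMBI, the gene of the pseudoreceptor, was a late responder. At 1, 2 and 4 h its signal lay between 530.4 and 650.7 on the MLN4924 arrays and between 532.1 and 576.9 on the DMSO arrays, with no call. At 2 h the MLN4924 arrays (581.4 to 650.7) lay above the DMSO arrays (546.2 to 555.9), apart but not called (0.14, limma adjusted p = 0.39). At 8 h the BAMBI signal was 421, 484.4 and 474.8 with MLN4924 and 577.4, 562.4 and 548.4 with DMSO, and at 24 h 207.5, 218.9 and 204.1 against 671, 637.9 and 662.4. The groups did not overlap at 8 or at 24 h. BAMBI fell by 0.28 at 8 h (SE 0.0574, limma adjusted p = 0.00132) and by 1.51 at 24 h (3.21e-16), while on the DMSO arrays it was higher by 0.24 at 24 h than at 1 h (limma adjusted p = 0.00335). The step from 8 to 24 h was -1.23 (SE 0.0811, limma adjusted p = 6.2e-11), and 11.3% of all genes were called lower at that step. The smaller step from 4 to 8 h, -0.34 (limma adjusted p = 0.032), was lost without any of DMSO 4 h replicate 1 or 3, DMSO 8 h replicate 1 or 2, MLN4924 4 h replicate 2 or MLN4924 8 h replicate 1 (limma adjusted p from 0.0524 to 0.0953), and the call at 8 h was lost with arrays centred on their median (-0.12, 0.325) and with the arrays of 8 h alone (-0.28, 0.0948).

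The intracellular inhibitors SMAD6, SMAD7 and SKIL had no called change with MLN4924 at any time. Over the 30 arrays SMAD6 ranged from 123.7 to 224.2 (median 176.8), SMAD7 from 50.5 to 130.7 (median 99.9) and SKIL from 421.8 to 689 (median 524.5). The 95% interval of the SMAD6 change was -0.14 to 0.26 at 4 h, -0.09 to 0.31 at 8 h and -0.34 to 0.06 at 24 h. For SMAD7 it was -0.01 to 0.49 at 4 h, -0.03 to 0.47 at 8 h and -0.52 to -0.03 at 24 h before adjustment. For SKIL it was -0.48 to -0.06 at 2 h and -0.41 to 0.01 at 24 h before adjustment.

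SMAD7, which recruits ubiquitin ligases to the receptors, was 118.5, 105 and 110.2 with MLN4924 and 99, 95.3 and 74.9 with DMSO at 4 h. At 24 h it was 50.5, 93.2 and 70.8 with MLN4924 and 100.7, 91.3 and 83.2 with DMSO. The treated arrays were the higher ones at 4 h without overlap and the groups overlapped at 24 h, where replicate 2 of MLN4924 was the highest treated array. The change was 0.24 at 4 h (SE 0.12, limma adjusted p = 0.394) and -0.28 at 24 h (0.0822). Without MLN4924 24 h replicate 2 it was -0.42 at 24 h and called (limma adjusted p = 0.00681). The step from 8 to 24 h, -0.50 (SE 0.17, limma adjusted p = 0.0401), was called, but it was lost when any of 8 arrays was left out: DMSO 8 h replicate 1 or 3, DMSO 24 h replicate 1 or 2, MLN4924 8 h replicate 1 or 2, or MLN4924 24 h replicate 1 or 3 (limma adjusted p from 0.0627 to 0.145). Of all genes, 11.3% were called lower at this step.

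SKIL, the SnoN corepressor gene, was 525.2, 554.6 and 493.8 with MLN4924 and 689, 660.8 and 572.2 with DMSO at 2 h, apart but not called (-0.27, SE 0.101, limma adjusted p = 0.322). Without both DMSO 2 h replicates 1 and 2 this difference was -0.12 (limma adjusted p = 0.999). At 24 h the change was -0.20 (limma adjusted p = 0.138), and it was called without DMSO 24 h replicate 3 (-0.30, 0.0306). A probe set of SKIL went the other way: 217591_at was 79.3, 48.1 and 89.8 with MLN4924 and 30.8, 28.6 and 57.1 with DMSO at 24 h. The difference was 0.56 (SE 0.149, limma adjusted p = 0.00526 over all probe sets) with overlapping arrays. The DMSO arrays of 217591_at had fallen (24 h against 1 h -0.58, limma adjusted p = 0.00897), while its MLN4924 arrays showed no called change (-0.08, 0.798). The 24 h call of 217591_at was lost with only the arrays compared (0.104). The other 3 SKIL probe sets and the other 3 of SMAD6 were not called at any time. Their means were low, from 20.8 to 56.1 for SKIL and from 15.6 to 45.1 for SMAD6, against a median of all signals of 36.6. Such signals limit what can be detected. Over all 26 member probe sets, 0, 3, 9, 12 and 8 were called lower at 1, 2, 4, 8 and 24 h, against 0.131%, 1.06%, 5.35% and 14.6% of all probe sets from 2 h on. The count of 12 at 8 h became 9 to 11 without single arrays. The SKIL probe set 217591_at was the only one of the 26 called higher at any of the 5 times, when 13.9% of all probe sets were higher at 24 h.

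**Figure D3:**
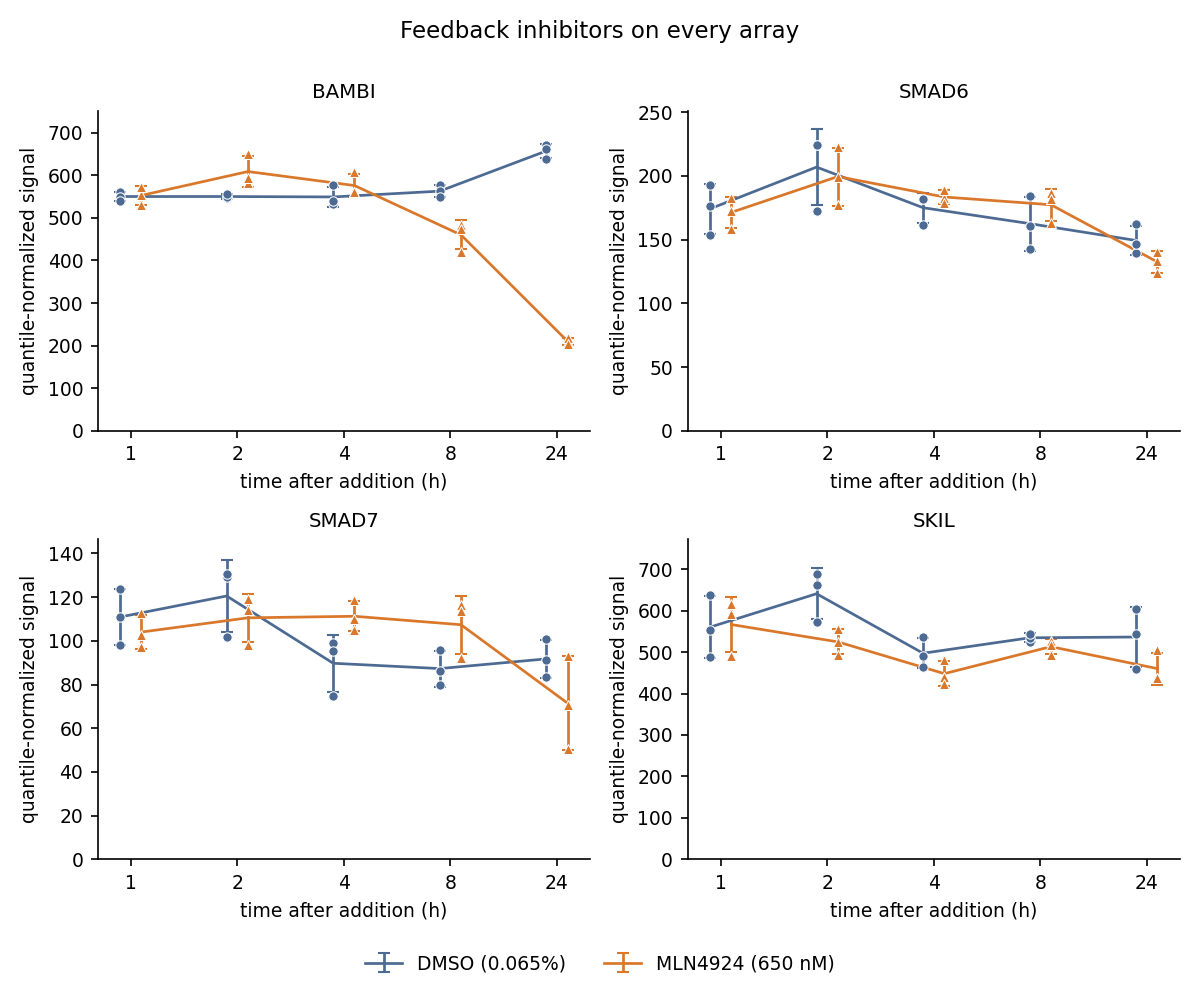
Quantile-normalized signal of BAMBI, SMAD6, SMAD7 and SKIL on every array against time (categories, not to scale); points are arrays, lines join group means and bars are 1 SD (n = 3). BAMBI separates at 24 h (210.2 with MLN4924, 657.1 with DMSO), whereas the error bars of the other genes overlap at most times.

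ID1, a BMP target whose protein restrains E proteins, was lower from 4 h on, with its lowest treated mean at 24 h. At 1 and 2 h the MLN4924 arrays (1628 to 2268) overlapped the DMSO arrays (1761 to 2464). The signal was 1239, 1266 and 1361 with MLN4924 against 1907, 2107 and 1901 with DMSO at 4 h, 941.5, 1093 and 895.6 against 1919, 2049 and 2181 at 8 h, and 779, 692.2 and 711.5 against 1897, 1864 and 1921 at 24 h. The groups were apart at each of these times. The change was -0.60 at 4 h (SE 0.106, limma adjusted p = 0.000836), -1.05 at 8 h (1e-07) and -1.34 at 24 h (2.14e-10), with the same SE. No single step between consecutive times was called, the smallest limma adjusted p being 0.16, but that from 2 to 4 h was called without DMSO 2 h replicate 3 (-0.65, 0.0248) and with p-values adjusted over the comparisons together (-0.52, 0.0452). ID1 kept its calls at 4, 8 and 24 h under every alternative that gave a value. Its only probe set, 208937_s_at, carries the suffix that marks possible cross-hybridization, and so do those of ID2 and ID3.

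ID2, whose product is likewise an E protein inhibitor, was lower from 2 to 8 h and not called at 24 h. At 1 h it was 261.2, 271.8 and 278.3 with MLN4924 and 348.6, 336 and 356.6 with DMSO, apart but not called (-0.33, SE 0.121, limma adjusted p = 0.893). It was 172.9, 146.8 and 164.8 against 254.3, 228.4 and 312.7 at 2 h, 100.5, 117.6 and 122.9 against 169.9, 170.2 and 182 at 4 h, and 107.6, 108.8 and 103 against 226.6, 233.8 and 175 at 8 h. At 24 h it was 183.1, 120.2 and 206.6 with MLN4924 and 142.2, 136.5 and 138.2 with DMSO. The MLN4924 arrays were the lower ones to 8 h and spread around the DMSO arrays at 24 h, when the DMSO level itself had fallen by 1.15 since 1 h (limma adjusted p = 2.13e-07).

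The ID2 change was -0.61 at 2 h (SE 0.121, limma adjusted p = 0.0128), -0.50 at 4 h (0.0165), -0.81 at 8 h (3.26e-05) and 0.21 at 24 h (0.196). The return from 8 to 24 h was 1.02 (SE 0.171, limma adjusted p = 7.9e-05), and 8.23% of all genes were called higher at that step. Without MLN4924 24 h replicate 2 the ID2 difference at 24 h was 0.41 and called (limma adjusted p = 0.00351). The call at 2 h was lost without DMSO 2 h replicate 3 (-0.50, 0.0542) or MLN4924 2 h replicate 2 (-0.56, 0.0836) and held without DMSO 2 h replicates 1 and 2 together (-0.84, 0.0275). The call at 4 h was lost without DMSO 4 h replicate 3 (-0.47, 0.0761) or MLN4924 4 h replicate 1 (-0.44, 0.096). Over all alternatives the adjusted p reached 0.364 at 2 h and 0.13 at 4 h. The other probe set, 201566_x_at, was called lower at 8 h only (-0.61, limma adjusted p = 0.0238) and showed no called return from 8 to 24 h (0.22, 0.688). At 24 h its MLN4924 arrays all lay below the DMSO arrays (-0.40, 0.107), opposite in sign to the brightest probe set. In addition, 1 further probe set shared with the symbol ID2B was left out.

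ID3, a further E protein inhibitor gene, was lower at 4 and 8 h and overlapped the DMSO arrays again at 24 h. Its signal was 1218, 1073 and 1329 with MLN4924 and 1406, 1396 and 1543 with DMSO at 1 h, apart but not called (-0.26, limma adjusted p = 1). It was 788.9, 785.2 and 1219 with MLN4924 and 1390, 1296 and 1190 with DMSO at 2 h, 623.6, 577.5 and 733.9 against 1126, 1172 and 1340 at 4 h, 1072, 869.9 and 762.8 against 1462, 1208 and 1465 at 8 h, and 1261, 1298 and 1099 against 1159, 1422 and 1208 at 24 h. The ID3 groups were apart at 1, 4 and 8 h and overlapped at 2 and 24 h. The change was -0.49 at 2 h (SE 0.143, limma adjusted p = 0.173), -0.88 at 4 h (0.00032), -0.60 at 8 h (0.00439) and -0.05 at 24 h (0.86). Without MLN4924 2 h replicate 3, the array at 1219, the difference at 2 h was -0.69 and called (limma adjusted p = 0.0129). The call at 8 h was lost with arrays centred on their median (-0.41, 0.071) and with only the arrays of 8 h (-0.60, 0.0534).

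For ID4 the result depended on the probe set. The brightest, 209293_x_at, was 45.2, 26.3 and 40.7 with MLN4924 and 78.6, 54.2 and 49.9 with DMSO at 24 h, and was not called at any time (24 h -0.42, SE 0.192, limma adjusted p = 0.102). Probe set 209291_at was 16.8, 12.4 and 11.1 with MLN4924 against 39, 47.5 and 45.2 with DMSO at 4 h, 18.9, 22.1 and 12.7 against 42, 29.4 and 47.1 at 8 h, and 14.4, 6.84 and 9.42 against 97.7, 95.9 and 91 at 24 h. The arrays of this probe set were apart at all these times, although the treated arrays lay below the median of all signals.

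ID4 probe set 209291_at fell by 0.74 at 4 h (SE 0.151, limma adjusted p = 0.00564 over all probe sets), by 0.51 at 8 h (0.0265) and by 1.59 at 24 h (8.95e-09). At 24 h part of the gap lay in the DMSO arrays, which had risen by 0.60 since 1 h (limma adjusted p = 0.00826). Its call at 8 h was lost without DMSO 8 h replicate 1 or 3 or MLN4924 8 h replicate 1 or 3 (limma adjusted p from 0.0562 to 0.121). Another ID4 probe set, 226933_s_at, was lower by 1.03 at 24 h (limma adjusted p = 1.26e-05), at 6.97 ± 5.04 (SD, n = 3) with MLN4924 against 48.4 ± 15.7 with DMSO. Its DMSO mean had been 30 at 1 h. At 8 h its change was -0.48 (limma adjusted p = 0.0499), a call lost in 12 of 13 alternatives. The other 2, 209292_at and 229386_at, had means of 8.5 and 19.6 and no call. The 32 added before log2 compresses changes at such low signals.

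**Figure D4:**
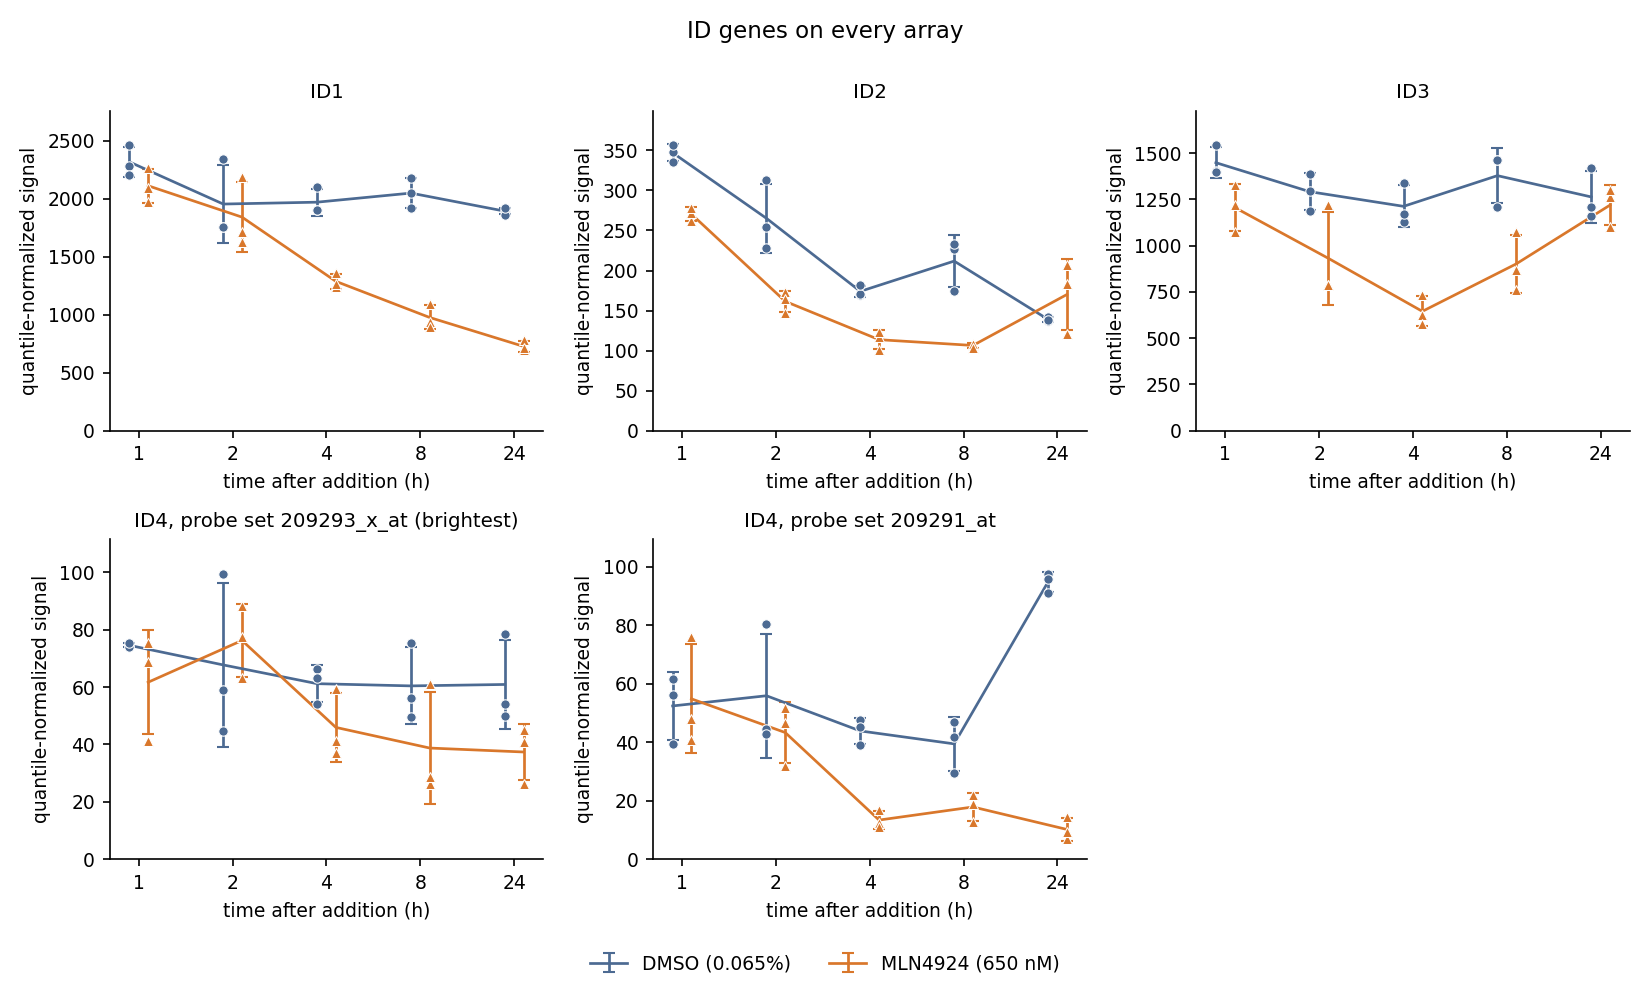
Quantile-normalized signal of ID1, ID2, ID3 and of ID4 probe sets 209293_x_at and 209291_at on every array against time (categories, not to scale); points are arrays, lines join group means and bars are 1 SD (n = 3). ID1 with MLN4924 declines to 727.6 at 24 h, ID2 and ID3 meet the DMSO arrays again at 24 h, and ID4 209291_at stands at 10.2 against 94.8.

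Within each arm the members moved differently between 1 and 24 h. On the MLN4924 arrays 7 of 10 members fell, against 15.5% of all genes: FST (-0.85, limma adjusted p = 7.08e-09), BAMBI (-1.27, 1.29e-14), ID1 (-1.50, 4.65e-11), ID2 (-0.61, 0.000294), SMAD6 (-0.31, 0.0171), SMAD7 (-0.41, 0.00947) and SKIL (-0.28, 0.0393). Without MLN4924 24 h replicate 1 the count was 4, with SMAD6 (0.0755), SMAD7 (0.108) and SKIL (0.125) no longer called. The SKIL call was also lost without MLN4924 24 h replicate 3 (0.128) or MLN4924 1 h replicate 2 (0.178) or 3 (0.13), and that of SMAD6 without MLN4924 1 h replicate 1 (0.0781). With all probe sets of a gene averaged, SMAD6 was at -0.05 (0.825) and SKIL at -0.08 (0.467), and SMAD6 was at -0.0016 (0.997) without _x_at and _s_at probe sets. On the DMSO arrays INHBA and BAMBI rose and ID2 fell. Between consecutive times, 0 members had a called step from 1 to 2 h by limma (2 at an unadjusted p under 0.05; 0.147% of all genes called in either direction). INHBA was called at that step without MLN4924 2 h replicate 3 (-0.63, limma adjusted p = 0.0175).

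The likeness between members and other genes was described by Pearson's r over the 10 group means, which share the same 30 arrays. Among 1726 genes whose group means spanned at least 1 on the log2 scale, those most like INHBA were SLC20A1 (0.98), ORAI3 (0.97) and ATOSA (0.96). Those most like FST were LINC00473 (0.94), ZBTB38 (0.93) and VAMP2 (0.93), and for BAMBI they were CRYBG1 (0.99), HLA-DMA (0.99) and TMSB4X (0.99). For ID1 they were LINC00938 (0.99), ST8SIA4 (0.99) and SOX2 (0.98). For ID2 the values were lower, with NFKBIZ (0.80), LINC00472 (0.79) and GLIDR (0.78), and NFKBIZ also stood among those of ID3 (0.89) with DUSP10 (0.92) and UBBP1 (0.86). Among pairs of members the highest values were 0.91 for ID1 and ID4, 0.89 for SMAD6 and SMAD7, 0.83 for FST and ID1, 0.80 for BAMBI and ID1 and 0.80 for FST and ID4, and the lowest was -0.37 for INHBA and SMAD6. INHBA and FST, the ligand and its antagonist, were at 0.68.

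The other genes of the pathway moved in both directions, as did the genes as a whole. Of 94 listed genes 86 were measured, of which 0 were called at 1 h, 2 were higher and 0 lower at 2 h, 9 higher and 3 lower at 4 h, 21 higher and 11 lower at 8 h, and 17 higher and 25 lower at 24 h. Their median change was 0.09 at 8 h and 0.04 at 24 h. Of all genes, 0.344% were called higher and 0.212% lower at 2 h, and 1.84% and 1.57% at 4 h. The shares were 8.35% higher and 6.83% lower at 8 h, and 15.9% and 18.1% at 24 h. The counts of each list below stand against these same shares.

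Among 18 other ligands, 6 were higher and 1 lower at 8 h, and 4 higher and 2 lower at 24 h (list median 0.16 and 0.06). INHBE, another activin subunit gene, rose by 0.42 at 4 h (SE 0.095, limma adjusted p = 0.0101), by 0.76 at 8 h (3e-06) and by 1.26 at 24 h (1.02e-10), from 14.1 ± 3.53 with DMSO to 78.6 ± 13.9 with MLN4924 at 24 h (SD, n = 3), opposite to INHBA. Its call at 4 h was lost without DMSO 4 h replicate 3 (0.0878) or MLN4924 4 h replicate 1 (0.0616). INHBB, the activin B subunit gene, rose by 0.80 at 8 h (limma adjusted p = 0.00116) from a dim 7.48 ± 5.8 to 36.3 ± 6.06. GDF15, a distant member of the family induced by cell stress, rose by 6.44 at 24 h, and GDF11 fell by 1.02 (limma adjusted p = 5.62e-21 and 1.21e-08).

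Of 14 receptors and co-receptors, 4 were higher at 8 h, and 2 were higher and 6 lower at 24 h (list median -0.23 at 24 h). TGFBR2, the TGF-beta type II receptor gene, rose by 0.42 at 4 h (limma adjusted p = 0.000559) and fell by 1.01 at 24 h (3.31e-11), from 263.8 ± 5.74 with DMSO to 114.8 ± 8.87 with MLN4924. BMPR2, the BMP type II receptor gene, and ACVR1, a type I receptor gene, fell by 0.95 and 0.94 at 24 h (limma adjusted p = 1.07e-08 and 2.32e-12). The co-receptor gene TGFBR3 rose by 0.80 at 8 h (limma adjusted p = 9.93e-06), and ACVR2B, an activin type II receptor gene, by 0.52 (0.00168). With all probe sets of a gene averaged, TGFBR2 at 4 h (0.23, limma adjusted p = 0.0975) and ACVR2B at 8 h (0.11, 0.413) were not called. The receptor list thus held genes higher at 8 h and genes lower at 24 h, while BAMBI was called lower at both times (-0.28 and -1.51).

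Of 14 extracellular antagonists and latency proteins, 1 was higher and 2 lower at 8 h, and 4 higher and 3 lower at 24 h. FSTL1, a follistatin-like gene, rose by 1.13 at 8 h and 0.84 at 24 h (limma adjusted p = 1.67e-07 and 2.61e-06), and FSTL3, whose product also binds activin, by 0.73 at 24 h (0.000485). Neither was called at 4 h, nor FSTL3 at 8 h (0.22, 0.413). NOG, the gene of the BMP antagonist noggin, rose by 0.68 at 24 h (limma adjusted p = 0.000343), from 14.5 ± 4.36 to 42.3 ± 5.8.

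Of the 6 other SMAD genes, 1 was lower at 8 h, and 1 was higher and 3 were lower at 24 h (list median -0.24). SMAD5, a BMP-branch SMAD, rose by 0.45 at 24 h (limma adjusted p = 3.28e-05) and the common partner SMAD4 fell by 0.35 (0.000118). Of 13 intracellular regulators, 4 were higher and 4 lower at 8 h, and 3 higher and 3 lower at 24 h. SMURF2, a ubiquitin ligase that SMAD7 brings to the receptors, rose by 0.84 at 4 h, 1.01 at 8 h and 0.85 at 24 h (SE 0.0898, limma adjusted p = 7.63e-07, 1.18e-08 and 3.3e-08). PMEPA1, a TGF-beta-induced inhibitor of the pathway, fell by 0.97 at 8 h and 1.65 at 24 h (limma adjusted p = 3.16e-06 and 6.74e-11), from 737.8 ± 74.7 to 215.7 ± 47.3 at 24 h. When probe sets ending in _x_at and _s_at were left out, SMAD4 (-0.02) and SMURF2 (0.72) lost their calls at 24 h (limma adjusted p = 0.942 and 0.134), and SMURF2 also at 4 h (0.80, 0.313) and 8 h (0.43, 0.522).

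Of 16 transcripts widely used as readouts of the pathway, 2 were higher at 2 h and 4 at 4 h, 6 were higher and 1 lower at 8 h, and 4 were higher and 4 lower at 24 h. CCN2, a matricellular protein gene, was higher with MLN4924 by 1.06 at 2 h and by 2.97 at 24 h (limma adjusted p = 5.61e-07 and 4.1e-17). Its mean at 2 and 24 h was 2336 and 2931 with MLN4924, and 1108 and 345.1 with DMSO. Part of the wider gap at 24 h thus lay in the lower DMSO arrays. The CCN2 call at 2 h was lost with only the arrays compared (0.147). TGFBI, an extracellular matrix gene, fell by 1.65 at 24 h (limma adjusted p = 1.05e-13). HEY1, a Notch and BMP target, rose by 0.49 at 2 h (limma adjusted p = 0.0202) and 0.76 at 4 h (2.15e-05). Its call at 2 h was lost without DMSO 2 h replicate 3 (0.0696) or MLN4924 2 h replicate 3 (0.174), which left 1 readout called. MSX1, a homeobox BMP target, rose by 1.07 at 8 h (limma adjusted p = 9.5e-10), when ID1, ID2 and ID3 were lower. Without its _x_at and _s_at probe sets MSX1 was at 0.33 and not called (0.0598). CDKN1A, the p21 gene, which p53 also drives, rose by 3.34 at 24 h (limma adjusted p = 7.46e-16).

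Of 6 E protein and basic helix-loop-helix genes, whose products ID proteins bind or oppose, 0 were higher and 2, 2 and 4 were lower at 4, 8 and 24 h (list median -0.43 at 24 h). TCF12 and TCF4, which encode E proteins, fell by 0.97 and 0.55 at 24 h (limma adjusted p = 3.9e-10 and 6.85e-05), so that transcripts of these E proteins and of ID1 were lower at the same time. HES1, a helix-loop-helix repressor gene, fell by 0.76 at 24 h (limma adjusted p = 3.86e-05) by its brightest probe set, and by the one that does not end in _x_at or _s_at its change was 0.03 (0.794).

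**Figure D5:**
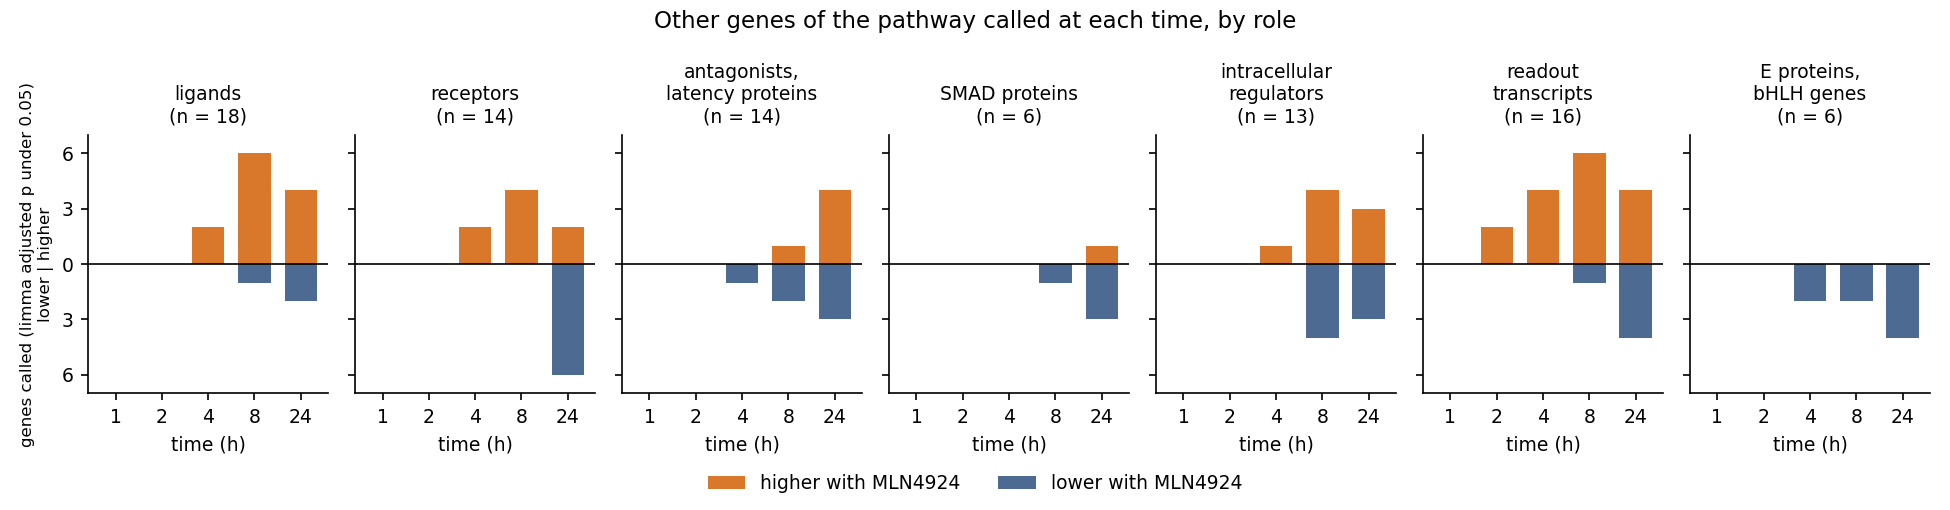
Number of other pathway genes called higher (above 0) or lower (below 0) with MLN4924 at each time, by role, with n the genes measured in each list; called means a limma adjusted p under 0.05. Receptors have 4 higher at 8 h and 6 lower at 24 h, and the E protein list holds only lower calls.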

How the data were processed

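RNA of A375 cells was measured on 30 arrays, 3 in each of 10 groups taken from the sample titles. The deposited values are intensity, a linear probe set signal for 54675 probe sets, made with Affymetrix Expression Console per the submitters' processing notes (version and algorithm not given in the sources used here). All arrays had the same 2% trimmed mean, 150.02, and 55 values were 0. Of the probe sets, 41097 had 1 symbol, 1801 several and 11777 none. All 10 member symbols and 19735 of 19775 genes matched RefSeq by gene ID. Signals were quantile-normalized and log2(signal + 32) was modelled as 1 mean per group in limma 3.58.1 (R 4.3.3; 20 residual degrees of freedom), with eBayes and Benjamini-Hochberg per comparison, two-sided. The brightest probe set stood for a gene, and all 41097 probe sets were fitted separately. The fit was tested on simulated data. Figures were drawn with matplotlib 3.10.9 in Python 3.11.15.

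The members, lists and tests were chosen with earlier results of these data known. Named pathway genes are among the 3 called genes per list and time with the largest change and separate arrays, and the likeness rule took 3 genes per member with a called F test. Some listed genes were not analysed here. Alternatives changed the normalization, the added constant, the probe set rule, the filter, the adjustment, the arrays fitted and the replicate block. The 3 arrays per group limit the precision. Replicate numbers were not used as pairs.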

Additional observations from a re-analysis of the deposited data

Results flagged for a closer look

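The drug effect of 5 members differed between consecutive times by a test of the difference itself (limma, Benjamini-Hochberg over all genes). Of all genes, 0.293% were called lower from 2 to 4 h and 0.784% from 4 to 8 h. From 8 to 24 h 8.23% of all genes were called higher and 11.3% lower. For INHBA the drug effect changed by -1.02 from 2 to 4 h (adjusted p = 0.000123). For FST it changed by -0.60 from 2 to 4 h (0.00987), by -1.01 from 4 to 8 h (1.01e-05) and by 1.08 from 8 to 24 h (1.27e-07), so the transcript of follistatin came part of the way back. For BAMBI it changed by -0.34 from 4 to 8 h (0.032) and by -1.23 from 8 to 24 h (6.2e-11). For SMAD7 it changed by -0.50 from 8 to 24 h (0.0401), although no single time was called. For ID2 it changed by 1.02 from 8 to 24 h (7.9e-05), over an interval in which the ID2 level of the DMSO arrays was lower at its end. The smaller BAMBI and the SMAD7 changes were each lost when any of several single arrays was left out, as given with these genes above.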

How the results depend on the processing

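Of 35 called member changes 24 kept their call and direction in every alternative run. ID1, ID2 and ID3 gave no value without _x_at and _s_at probe sets.

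The count of members called at 2 h, 2, became 1 with arrays centred on their median, 0 with probe sets of a gene averaged, 1 without _x_at and _s_at probe sets, 0 with only the arrays compared, 1 without DMSO 2 h replicates 1 and 2 together (chosen after seeing the data, and assuming that the lone DMSO array varied like the other groups), and 0 to 3 without single arrays. At 4 h the count of 5 became 3 without _x_at and _s_at probe sets. The step from 1 to 2 h gave 1 member instead of 0 with p-values adjusted over the comparisons together, and 0 to 1 without single arrays. The 2 members of the step from 2 to 4 h became 1 with arrays centred and 1 with only the arrays compared. Those of the step from 4 to 8 h became 1 with the signals as deposited, 1 with arrays centred, 1 with only the arrays compared and 1 to 2 without single arrays. From 1 to 24 h, the 3 members called in DMSO became 5 with the mean of probe sets, and the 7 with MLN4924 ranged from 4 to 7 without single arrays. The 3 member probe sets called at 2 h became 0 with only the arrays compared and ranged from 0 to 3 without single arrays.

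Of the other pathway genes, the 2 called at 2 h became 4 with dim genes left out, 1 without _x_at and _s_at probe sets, 5 with p-values adjusted together, 0 with only the arrays compared, 1 without DMSO 2 h replicates 1 and 2 together and 1 to 2 without single arrays. The 12 at 4 h became 6 with only the arrays compared and 8 to 11 without single arrays. The 32 at 8 h became 20 without _x_at and _s_at probe sets, 18 with only the arrays compared and 24 to 28 without single arrays, and the 42 at 24 h 36 to 39. With only the arrays compared, all genes called fell from 110 to 10 at 2 h and from 673 to 296 at 4 h. They fell from 3002 to 1495 at 8 h and from 6723 to 6282 at 24 h. Fewer arrays estimate the spread in these fits, and the cause of the losses was not tested.

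Reversed directions were few. The SKIL step from 8 to 24 h was 0.27 with the mean of probe sets, and ID4 in DMSO from 1 to 24 h was 0.60 without _x_at and _s_at probe sets. Without these probe sets HES1 was 0.0331 at 8 h and 0.0325 at 24 h, LTBP3 was 0.0647 at 4 h and 0.0961 at 8 h, and SMAD4 was 0.24 at 8 h, where the mean of probe sets gave 0.0111. The cause was not tested beyond the change of probe set.

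Replicate numbers did not pair the arrays: of 15 same-number pairs 0 correlated over 0.1 (range -0.11 to 0.07). With the replicate number as a block, members called at 1, 2, 4, 8 and 24 h were 0, 2, 5, 6 and 5, the added call being SMAD7 at 24 h (-0.28, limma adjusted p = 0.0372). Signals near the median of 36.6, as for ID4, limit what can be detected.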
